A study of Mus musculus with 6 samples.

Results

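The 10 genes described here are serum response factor (Srf), its coactivator Mkl1 and 8 contractile or cytoskeletal genes that SRF is known to regulate: Acta2, Actg2, Csrp1, Tagln, Cnn1, Myl9, Tpm1 and Vcl. They are 10 of the 24054 genes counted, and each was found by its symbol. The genes were chosen from the difference between DNAJ-PKAc and WT in these same libraries, so their values in that contrast are a description and carry no test. Total RNA was sequenced from the mouse line TIBx, whose cell type is labelled liver BNL 1ME A.7R.1. The 3 libraries of genotype DNAJ-PKAc came from the line TIBx-DNAJ-PKAc, and the 3 libraries of genotype WT came from its parental line TIBx-WT. In DNAJ-PKAc, part of the heat shock protein DNAJB1 is joined to the protein kinase A catalytic subunit, a fusion that characterises fibrolamellar hepatocellular carcinoma. Both lines were kept in DMEM with serum, glutamine, pyruvate, antibiotics, nonessential amino acids and HEPES. Each genotype is represented by 1 line, so an effect of the fusion and any other difference between the lines cannot be told apart, and the labels do not say how the fusion was introduced.

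SRF is a transcription factor that binds as a dimer to the CArG box, a short element with an A and T rich core. Its activity depends on its partners. MRTF proteins, encoded by Mkl1 and Mkl2, are held by monomeric actin and enter the nucleus when RhoA signalling drives actin into filaments, where they act with SRF on cytoskeletal and contractile genes. Ternary complex factors such as ELK1 bring SRF to immediate early genes after growth factor signals, and myocardin (Myocd) serves as its partner in smooth muscle. In liver, Acta2 is best known as the marker of activated stellate cells and myofibroblasts.

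The promoter sequences show where these elements lie in the genes described. RefSeq windows on GRCm38.p6, from 250 bases before to 50 bases after each start site, were matched for 8 of the 10 genes, and the other 2, Actg2 and Tagln, had no entry. The stretches below carry the CArG boxes of Srf, Acta2, Myl9 and Vcl, in capitals, whether exact or with 1 mismatch, and each is written 5′ to 3′ on the strand of its gene.
Srf promoter, chr17:46556176-46556412, minus strand: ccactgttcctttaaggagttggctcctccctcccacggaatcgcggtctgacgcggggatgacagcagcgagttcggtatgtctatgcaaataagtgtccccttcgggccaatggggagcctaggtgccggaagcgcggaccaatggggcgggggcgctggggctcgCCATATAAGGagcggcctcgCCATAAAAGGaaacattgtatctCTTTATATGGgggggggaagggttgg
Acta2 distal element, chr19:34255438-34255467, minus strand: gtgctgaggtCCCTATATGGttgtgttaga
Acta2 proximal element, chr19:34255388-34255417, minus strand: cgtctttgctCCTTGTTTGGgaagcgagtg
Myl9 promoter, chr2:156775214-156775419, plus strand: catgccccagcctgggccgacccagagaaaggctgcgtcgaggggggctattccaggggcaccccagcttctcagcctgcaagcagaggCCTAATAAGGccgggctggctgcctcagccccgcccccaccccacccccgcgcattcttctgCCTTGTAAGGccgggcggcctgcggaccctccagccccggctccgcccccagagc
Vcl promoter, chr14:20929148-20929397, plus strand: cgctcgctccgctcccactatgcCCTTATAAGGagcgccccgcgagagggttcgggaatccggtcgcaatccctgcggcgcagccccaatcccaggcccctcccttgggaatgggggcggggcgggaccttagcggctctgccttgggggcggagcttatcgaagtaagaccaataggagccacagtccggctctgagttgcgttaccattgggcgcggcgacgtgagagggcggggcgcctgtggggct

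An exact CArG box, whose consensus is its own reverse complement so that a match counts on both strands, was found in the windows of 3 of the 8 genes. Srf held exact boxes from -82 to -73 and from -62 to -53 relative to the RefSeq start site of its window. Myl9 held 1 exact box from -161 to -152, and Vcl held 1 from -227 to -218. Of all 27025 genes with a window, 488 (1.81%) held an exact box. With 1 mismatch allowed, 6 of the 8 genes had a match, as did 23.8% of all genes. The elements of Acta2 were of this kind, at -84 to -75 and -34 to -25. Both also lie inside the annotated gene, which begins at 34255590 in GENCODE vM21 and at 34255585 in RefSeq. The printed Srf stretch, with its boxes, lies inside the RefSeq gene too, which begins at 46558267, but before the GENCODE start at 46556175. The matches of Tpm1 likewise lie inside its RefSeq gene, which begins at 67049672. Windows of Csrp1 and Cnn1 held no match, and no window of these genes held the full cyclic AMP response element TGACGTCA, the binding site of CREB, which 2.03% of all genes held on either strand. A match describes letters and not a bound site. The genes were listed as SRF, its coactivator or known SRF targets, so the shares beside all genes are no test.

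**Figure D1:**
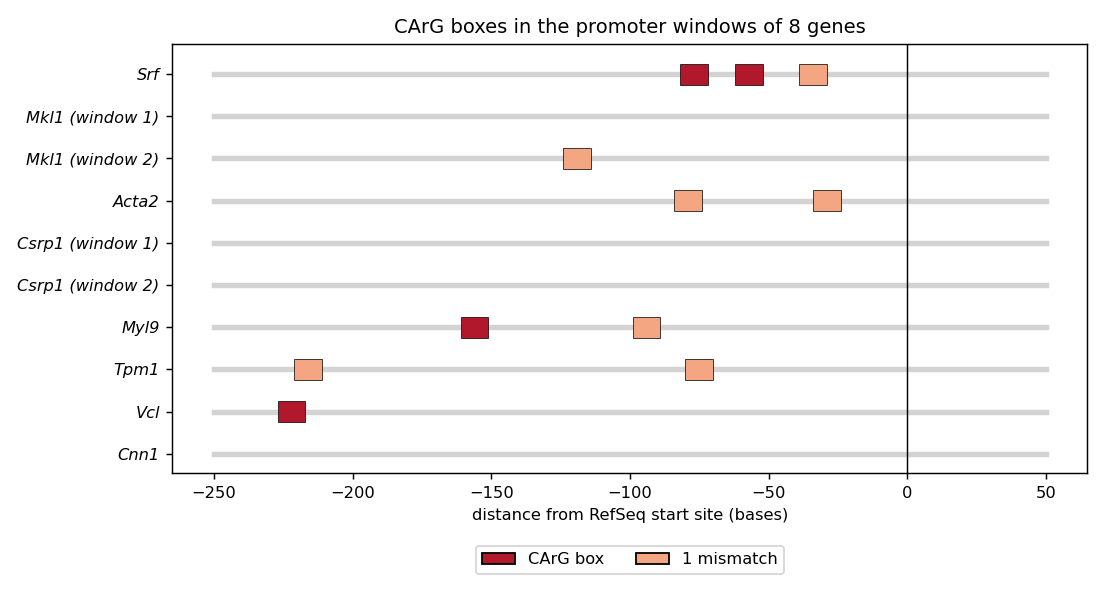
Position of CArG boxes in the promoter windows of 8 genes, in bases from the RefSeq start site (vertical line), with exact boxes in dark red and boxes with 1 mismatch in light red. Srf has exact boxes starting at -82 and -62, Myl9 at -161 and Vcl at -227, whereas Csrp1 and Cnn1 have none.

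Library totals ran from 8095549 to 9969590 expected counts. DNAJ-PKAc C stood apart from DNAJ-PKAc A and B, and WT B from WT A and C. A sum over 12 proliferation markers reached 2526 and 2671 CPM (counts scaled to a common library size by TMM) in DNAJ-PKAc A and B and 322 CPM in DNAJ-PKAc C, against 645.7 to 787.5 CPM in WT. Malat1, a nuclear RNA, was counted at 10410 CPM in WT B, and the other 5 libraries ran from 1065 to 4639 CPM. These Malat1 values were scaled by library total only, without TMM. Prkaca averaged 116 ± 18.2 CPM in DNAJ-PKAc and 76.8 ± 12.2 CPM in WT (SD, n = 3 each), a log2 difference of 0.59 with an edgeR adjusted p of 0.155, and counts per gene do not separate the fusion from the normal transcript. Of 10 hepatocyte markers 9, Alb and Hnf4a among them, had 0 counts in all 6 libraries, and Fgb had 1 count in 1 WT library. Vim, vimentin of mesenchymal cells, ran from 11560 to 12610 CPM in DNAJ-PKAc and from 12030 to 14220 CPM in WT. It is 1 of 10 fibroblast or stellate markers, of which 6 reached 1 CPM in any library. Another 3 of them, Thy1, Lrat and Reln, had 0 counts in all 6 libraries. The labelled liver identity was thus not visible in the hepatocyte markers. The part of these library features in the values that follow was not tested.

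Srf was higher in DNAJ-PKAc, whereas the levels of its coactivator Mkl1 overlapped between the lines. Srf, the transcription factor (chromosome 17, 46548329 to 46556175), measured 89.5, 85.0 and 74.0 CPM in the DNAJ-PKAc libraries A to C, against 46.9, 51.4 and 48.5 CPM in the WT libraries A to C. Every DNAJ-PKAc library lay above every WT library, and Srf averaged 82.8 ± 7.98 CPM in DNAJ-PKAc and 48.9 ± 2.26 CPM in WT (SD, n = 3 each), a log2 difference of 0.76 with an SE of 0.15. In bulk RNA, more cells with a transcript and more of it per cell cannot be told apart. Mkl1, the actin-sensing coactivator that newer annotations call Mrtfa (chromosome 15, 81012281 to 81190757), was at 37.8, 36.7 and 35.5 CPM in DNAJ-PKAc, against 28.9, 75.4 and 37.0 CPM in WT. The groups overlapped, with the DNAJ-PKAc libraries close together and WT B far above the rest. The log2 difference of Mkl1 was -0.36 with an SE of 0.35, and it was 0.11 without WT B.

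The smooth muscle actins were low in both lines and higher in DNAJ-PKAc. Acta2, alpha smooth muscle actin (chromosome 19, 34241090 to 34255590), had 358, 281 and 465 counts in DNAJ-PKAc A, B and C, against 96, 87 and 65 counts in WT A, B and C. These were 35.4, 34.7 and 56.7 CPM in DNAJ-PKAc, against 10.5, 10.2 and 7.18 CPM in WT. All DNAJ-PKAc libraries were far above all WT libraries. Acta2 averaged 42.3 ± 12.5 CPM in DNAJ-PKAc and 9.28 ± 1.83 CPM in WT (SD, n = 3 each), a fold of 4.55 and a log2 difference of 2.19 with an SE of 0.27. DNAJ-PKAc C was the highest library, and the fold was 3.78 without it.

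Actg2, the gamma actin of enteric smooth muscle (chromosome 6, 83512905 to 83536265), had 41, 26 and 37 counts in DNAJ-PKAc, against 1, 4 and 6 counts in WT. It averaged 3.93 ± 0.659 CPM in DNAJ-PKAc and 0.413 ± 0.280 CPM in WT (SD, n = 3 each), and the groups did not overlap. The fitted fold was 9.26, with a log2 difference of 3.21 and an SE of 0.52, and it rests on 11 counts over the 3 WT libraries. Actg2 entered the fit only through its DNAJ-PKAc counts. The actin genes are close in sequence, and reads shared between them make the split of counts uncertain.

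Among the contractile and cytoskeletal genes, Csrp1, a LIM protein of actin filaments (chromosome 1, 135720061 to 135752232), was at 166, 167 and 219 CPM in DNAJ-PKAc, against 77.2, 65.0 and 104 CPM in WT. The groups did not overlap, and its log2 difference was 1.17 with an SE of 0.22, a fold of 2.25. Myl9, a regulatory light chain of smooth muscle and nonmuscle myosin (chromosome 2, 156775420 to 156781658), had 13, 12 and 59 counts in DNAJ-PKAc, against 2, 3 and 3 counts in WT. The groups did not overlap, but DNAJ-PKAc C held 59 of the 84 counts of its group. The fitted fold of Myl9 was 10.6, with a log2 difference of 3.40 and an SE of 0.87, and it was 4.45 without DNAJ-PKAc C. Myl9 too entered the fit only through DNAJ-PKAc, and its reads could be shared with the related light chain genes Myl12a and Myl12b.

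Tpm1 and Vcl had the log2 differences closest to 0 among the 8 genes tested. Tpm1, a tropomyosin that lies along actin filaments (chromosome 9, 67022590 to 67049406), was at 971, 1038 and 1041 CPM in DNAJ-PKAc, against 959, 727 and 919 CPM in WT. The groups did not overlap, but the lowest DNAJ-PKAc and highest WT libraries were close, and the log2 difference of 0.23 (SE 0.17) was 0.07 without WT B. Vcl, vinculin of focal adhesions (chromosome 14, 20929398 to 21033676), was at 189, 196 and 246 CPM in DNAJ-PKAc, against 163, 302 and 167 CPM in WT. Its groups overlapped around a log2 difference of -0.00 (SE 0.27), and the value was 0.31 without WT B. Vcl holds an exact CArG box in its window, as Srf and Myl9 do.

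Tagln and Cnn1, classic smooth muscle genes for transgelin and calponin, were near or at 0. Tagln (chromosome 9, 45929619 to 45936058) had 0, 0 and 1 counts in DNAJ-PKAc, against 0, 1 and 0 counts in WT. Cnn1 (chromosome 9, 22099216 to 22109630) had 0 counts in all 6 libraries. Neither gene passed the filter on low counts, so no fold was computed. At the depth of each group, 0 counts, as for Cnn1, allow up to 0.113 CPM, and levels under that limit are not excluded. The paralogs of both genes were well above 0.113 CPM. Tagln2 averaged 197 ± 79.6 CPM in DNAJ-PKAc and 108 ± 15.5 CPM in WT, and Cnn2 averaged 662 ± 291 CPM in DNAJ-PKAc and 373 ± 35.2 CPM in WT (SD, n = 3 each), with edgeR adjusted p-values of 0.198 and 0.185.

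**Figure D2:**
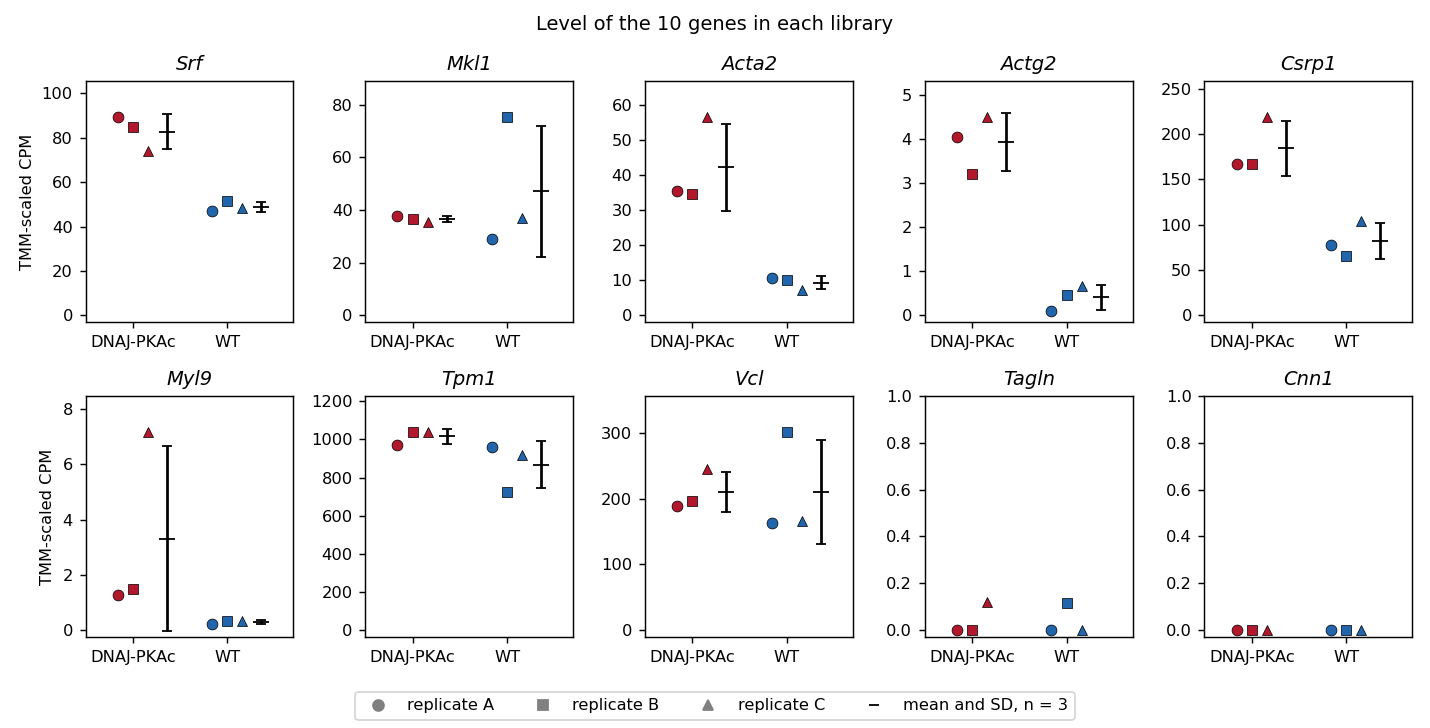
TMM-scaled CPM of the 10 genes, with DNAJ-PKAc libraries in red left of WT libraries in blue, 1 point per library and the mean with SD beside each group (not drawn for Tagln and Cnn1). Srf, Acta2, Actg2, Csrp1, Myl9 and Tpm1 lie higher in all 3 DNAJ-PKAc libraries than in all 3 WT libraries, Mkl1 and Vcl have their highest point in WT B, and Tagln and Cnn1 are near 0.

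Of the 10 genes, 8 passed the filter on low counts. The 8 had a median log2 difference of 0.96, against 0.05 for all 10975 genes tested. An edgeR adjusted p under 0.05 was reached by 4 of them, Srf, Acta2, Actg2 and Csrp1, all higher in DNAJ-PKAc, whereas 3.51% of all genes reached it, 1.37% higher and 2.14% lower. All 3 DNAJ-PKAc libraries lay above all 3 WT libraries for 6 of the 8 genes and below them for 0, and 15.8% and 13.1% of all genes did so. The genes were chosen on this contrast, so nothing is read from these counts.

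Levels of different genes were compared per kb of the longest coding transcript. In DNAJ-PKAc the order of the mean levels was Tpm1 at 352 CPM per kb, Csrp1 at 101, Vcl at 39.9, Srf at 31.7, Acta2 at 20.8, Mkl1 at 8.35, Actg2 at 2.95 and Myl9 at 2.94, and only Actg2 and Myl9 overlapped among neighbours. In WT the order of the mean levels was Tpm1 at 300.4 CPM per kb, Csrp1 at 44.9, Vcl at 39.9, Srf at 18.7, Mkl1 at 10.7, Acta2 at 4.56, Actg2 at 0.310 and Myl9 at 0.266. There Csrp1 overlapped with Vcl, and Actg2 with Myl9. Acta2 thus stood above Mkl1 in DNAJ-PKAc and below it in WT, without overlap in either line. Tpm1 has transcripts from 887 to 2890 bases, and over its merged exons its level was 213 CPM per kb in DNAJ-PKAc and 182 CPM per kb in WT.

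The cytoplasmic actins Actb and Actg1 made up nearly all actin RNA. Acta2 and Actg2 together were 0.454, 0.434 and 0.829% of the per-length level of the 6 actin genes in DNAJ-PKAc, against 0.166, 0.154 and 0.122% in WT. The groups did not overlap, and the share averaged 0.572 ± 0.223% in DNAJ-PKAc and 0.147 ± 0.0231% in WT (SD, n = 3 each). Actb was 71.7% of the actin level in DNAJ-PKAc and 63.7% in WT, and Actg1 was 27.8% in DNAJ-PKAc and 36.2% in WT.

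**Figure D3:**
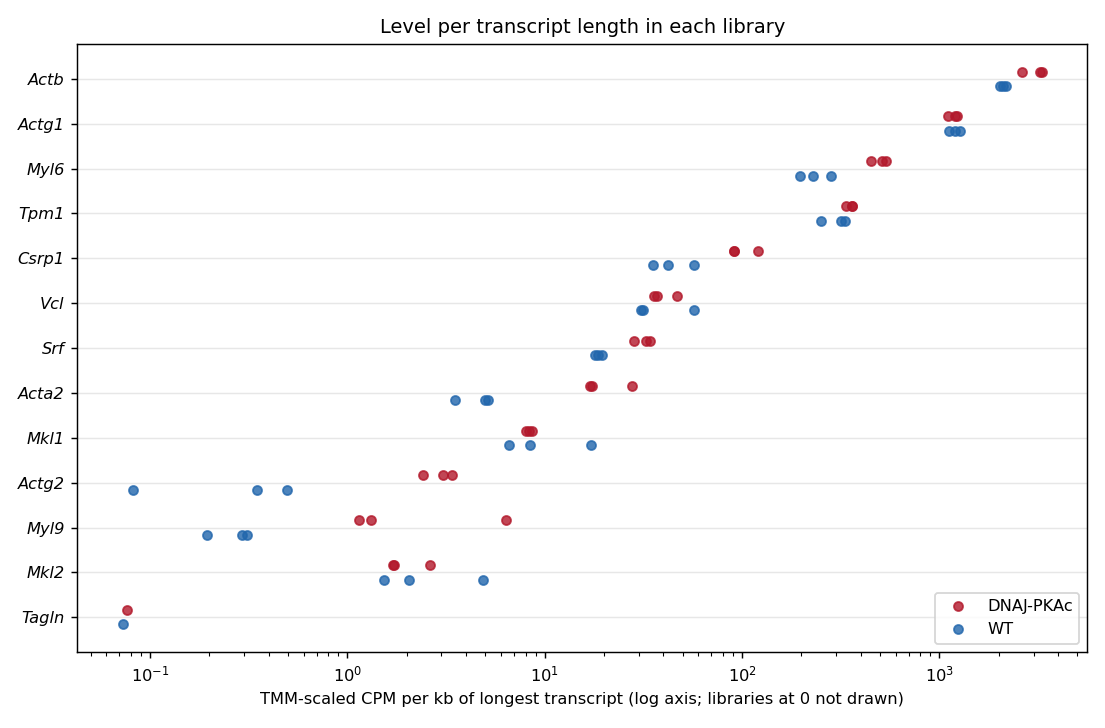
Level in each library as TMM-scaled CPM per kb of the longest coding transcript, on a log axis, for 9 of the 10 genes and 4 others, with DNAJ-PKAc in red above WT in blue and libraries at 0 not drawn. Actb and Actg1 lie above 1000, and Acta2 lies at 17.1 to 27.8 in DNAJ-PKAc and at 3.53 to 5.17 in WT.

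The remaining parts of the pathway were read from 5 lists of 105 other genes, of which 81 were tested. The edgeR test called 4 of them (4.94%), all higher in DNAJ-PKAc, beside the 1.37% of all genes called higher. Their median log2 difference was 0.09, with 45 above 0 and 36 below. Complete separation of the groups was seen for 17 of the 81 above WT and 4 below, beside 15.8% and 13.1% of all genes. Over all genes, 21.5% had an unadjusted p under 0.05 (11.8% higher and 9.72% lower), DESeq2 called 8.87% and limma-voom 3.56%, and the counts of each list are read beside these shares. The lists were chosen with earlier results of these data known, so their counts are a description and not a test of the pathway. All adjusted p-values that follow are from edgeR's quasi-likelihood test over all genes.

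Of the SRF cofactors and ternary complex factors, 0 of 7 tested passed, 0 had an unadjusted p under 0.05, and DESeq2 and limma-voom also called 0. Mkl2, the other MRTF gene, was at 14.4, 14.2 and 21.8 CPM in DNAJ-PKAc, against 12.7, 40.3 and 17.1 CPM in WT, with WT B again the highest library. Elk4 was also highest in WT B, at 28.9 CPM, and its log2 difference was -0.81 (adjusted p = 0.297). The other ternary complex factors, Elk1 and Elk3, had log2 differences of 0.22 (adjusted p = 0.414) and 0.14 (adjusted p = 0.618), and Fhl2, a LIM cofactor, had 0.30 (adjusted p = 0.365). Myocd, the smooth muscle partner of SRF, had 0 counts in all libraries.

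Of the genes from RhoA to actin, 0 of 24 tested passed by edgeR. An unadjusted p under 0.05 was reached by 6, of which 3 were higher and 3 lower, and DESeq2 called 2 and limma-voom 0, shares near those over all genes. The list had 10 genes above 0 and 14 below, and the median log2 difference was -0.10. Rnd3, a GTPase that opposes RhoA signalling, averaged 35.1 ± 33.0 CPM in DNAJ-PKAc and 7.75 ± 2.31 CPM in WT (SD, n = 3 each, adjusted p = 0.130), and DNAJ-PKAc C alone was at 73.1 CPM. Its log2 difference of 2.18 was 1.05 without DNAJ-PKAc C, with an adjusted p of 0.0306, and DESeq2 gave an adjusted p of 0.00792 over the 6 libraries. Limk1, the kinase that inactivates cofilin, averaged 30.8 ± 2.21 CPM in DNAJ-PKAc and 43.2 ± 1.89 CPM in WT (adjusted p = 0.133). The log2 difference of Ssh1, the phosphatase that reactivates cofilin, was -1.13 (adjusted p = 0.202), and that of cofilin itself, Cfl1, was 0.57 (adjusted p = 0.203). Rhoa measured 289.9, 294 and 393 CPM in DNAJ-PKAc, against 404, 429.7 and 411 CPM in WT (adjusted p = 0.281).

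Of the other smooth muscle contractile genes, 0 of 11 tested passed by edgeR, with 3 at an unadjusted p under 0.05, 1 called by DESeq2 and 0 by limma-voom, again near the shares over all genes, and 12 more were too low to test. Myh11, the smooth muscle myosin heavy chain, had 1 count in all, in DNAJ-PKAc C. Mylk, myosin light chain kinase, averaged 1.28 ± 0.904 CPM in DNAJ-PKAc and 3.74 ± 0.807 CPM in WT (SD, n = 3 each, adjusted p = 0.196). Ppp1r12a, the targeting subunit of myosin phosphatase, averaged 147 ± 4.15 CPM in DNAJ-PKAc and 104 ± 2.07 CPM in WT (adjusted p = 0.0980). For Pdlim7 the log2 difference was 0.40 (adjusted p = 0.214). For Cald1, caldesmon, it was 0.32 (adjusted p = 0.475), and -0.00 without DNAJ-PKAc C. Of 8 smooth muscle and pericyte markers, Rgs5 had 0 counts in all libraries and Myh11, Des, Lmod1 and Notch3 were low. The summed level of the 8 was 225 to 539.6 CPM in DNAJ-PKAc and 566 to 1177 CPM in WT, nearly all from Cspg4, Pdgfrb and Smtn. Cspg4 was the 1 whose groups did not overlap, at 126 ± 22.6 CPM in DNAJ-PKAc and 518 ± 285 CPM in WT (SD, n = 3 each), a log2 difference of -2.04 with an adjusted p of 0.0382. With 1 library left out its adjusted p ran from 0.0193 to 0.161.

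The list of other actins and cytoskeletal SRF targets held 3 of the 4 calls among its 28 tested genes, all higher, beside 1.37% of all genes. An unadjusted edgeR p under 0.05 was reached by 12, all higher, beside 11.8% of all genes. DESeq2 called 5 and limma-voom 3, beside 8.87% and 3.56% of all genes. It had a median log2 difference of 0.42, with 11 genes above WT in all 3 DNAJ-PKAc libraries and 0 below, beside 15.8% and 13.1% of all genes. Myl6, the essential light chain of nonmuscle myosin, rose to 833 ± 73.4 CPM in DNAJ-PKAc, against 394 ± 72.4 CPM in WT (SD, n = 3 each), a log2 difference of 1.08 with an SE of 0.19 and an adjusted p of 0.0288. Filip1l, a filamin A interacting protein, rose to 118 ± 19.97 CPM in DNAJ-PKAc, against 58.3 ± 7.69 CPM in WT (adjusted p = 0.0348). Enah, an actin filament elongation factor, rose to 53.8 ± 6.69 CPM in DNAJ-PKAc, against 28.8 ± 4.72 CPM in WT, with an adjusted p of 0.04996 at the edge of the threshold, and of 0.0508 with RLE factors. Actb, beta actin, averaged 5860 ± 713 CPM in DNAJ-PKAc and 4044 ± 134 CPM in WT (adjusted p = 0.140), while Actg1 had a log2 difference of -0.02.

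Of the 11 immediate early genes tested, 1 passed by edgeR, beside 3.51% of all genes. An unadjusted p under 0.05 was reached by 1, beside 21.5% of all genes, and DESeq2 and limma-voom each called 1. Nr4a1, a nuclear receptor gene, rose to 17.2 ± 2.49 CPM in DNAJ-PKAc, against 5.84 ± 2.03 CPM in WT (SD, n = 3 each), a log2 difference of 1.56 with an SE of 0.30 and an adjusted p of 0.0389. It is also a known CREB target. Ier3 and Egr2 had log2 differences of 0.53 (adjusted p = 0.400) and 0.76 (adjusted p = 0.469), and Mcl1 had -0.10 (adjusted p = 0.779). The value of Egr2 was 1.72 without WT C and 0.35 without WT B. The calls of Myl6, Filip1l, Enah and Nr4a1 were each lost when any 1 library other than DNAJ-PKAc C was left out, with highest adjusted p-values of 0.133, 0.149, 0.194 and 0.164.

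The counts of calls depended on the libraries that stood apart. Without DNAJ-PKAc C, 18 of the other pathway genes passed as higher and 10 as lower, beside 14.3% higher and 11% lower of all genes tested. The cytoskeletal list then had 11 higher and 2 lower. Some list genes named by smallest adjusted p or highest mean level passed without DNAJ-PKAc C and not with it. They were Rnd3, Limk1, Cfl1, Ppp1r12a, Mylk, Actb and Ier3. Without both WT B and DNAJ-PKAc C, 25 passed as higher and 17 as lower, beside 23.9% and 24.5% of all genes, and the cytoskeletal list had 16 higher and 2 lower. Of the RhoA to actin genes, 4 then passed as higher and 8 as lower.

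**Figure D4:**
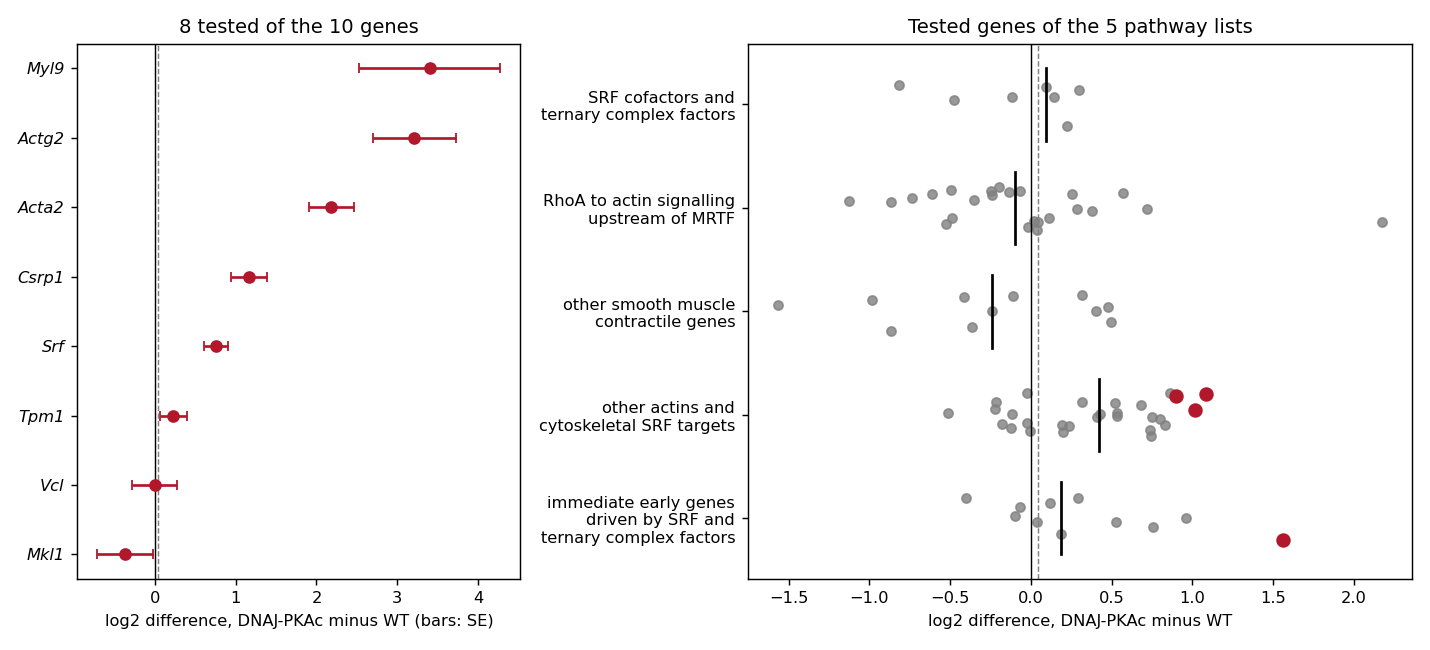
Log2 difference, DNAJ-PKAc minus WT, of the 8 tested genes with SE bars (left) and of the 81 tested pathway genes in 5 lists, 1 point per gene (right), with list medians as black bars, the median of all genes as a dashed line and genes past the threshold in red. The 8 genes run from -0.36 (Mkl1) to 3.40 (Myl9), and the red points are Myl6, Filip1l, Enah and Nr4a1.

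The genes most like Acta2 were taken by Pearson's r of log2 CPM over the 6 libraries among 9490 genes of at least 5 CPM. Mest and Plk2 were at 0.995, Filip1l at 0.995, Sqrdl at 0.994 and Has2, a hyaluronan synthase, at 0.993. Has2 was at 13.4, 12.6 and 27.2 CPM in DNAJ-PKAc, against 2.96, 2.57 and 2.32 CPM in WT, so like Acta2 it was highest in DNAJ-PKAc C. The 6 points share the split between the lines, and 331 genes exceeded 0.9.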

How the data were processed

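The authors deposited expected counts, unnormalized, with genes in rows and libraries in columns, per the file headers. The submitters' processing notes list STAR 2.5.2b, RSEM 1.3.0 and mm10 but no role for them. The sources used here do not give the annotation or the strand mode of the counting. Of the genes looked up, Srf, Mkl1, Mkl2, Tagln, Vcl, Filip1l, Acta1 and Actc1 overlap genes on the opposite strand, so their counts are uncertain. Values that were not exactly whole were found for 1.52% to 1.68% of genes per library, and all values were rounded.

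Genes were kept by filterByExpr (minimum count 10), scaled by TMM and fitted by edgeR 4.0.16 in R 4.3.3 (quasi-likelihood, robust dispersions, group as the only term), with 2-sided p-values adjusted by Benjamini-Hochberg over 10975 genes at a threshold of 0.05. Of the 24054 genes, 10087 had no read. The SE is the log2 difference divided by the root of the F statistic. Floors are 3 counts, turned into CPM by library total without TMM, and cover counting error only. Lengths and gene positions came from GENCODE vM21 on GRCm38, the assembly of mm10, and promoters from RefSeq on GRCm38.p6.

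The members and lists were chosen with earlier results of these data known. All 10 members were named, and from each list the calls of smallest adjusted p (up to 4, filled to 3 with the next smallest) and the gene of highest mean level. Mkl2, Rhoa, Actg1, Tagln2, Cnn2, Myh11, Myocd and Cspg4 were named after their values were seen. Vim, Col1a2, Pdgfrb and Mki67, from the marker lists, fell under no naming rule either. As alternatives, the fit was repeated with upper-quartile or RLE factors, no filter, 1 CPM in 3 libraries, DESeq2 1.42.0, limma-voom (3.58.1), non-robust dispersions, a block for the replicate letter, 1 library left out at a time, WT B and DNAJ-PKAc C both left out, structural RNA out of library sizes, and a threshold of 0.01. Whether replicates were separate cultures is not stated in the labels. The p-values thus cover only variation among these libraries, and it may be technical. All pairs within a group differed by more than sampling noise, but by unlike amounts, and all 6 libraries were counted. A chi-square of the counts, per degree of freedom, was 3.70 for DNAJ-PKAc A with B, and 94.95 and 88.4 for A and B with C. In WT it was 9.92 for A with C, and 68.2 and 66.6 for A and C with B. Counts of calls without DNAJ-PKAc C thus rest on the closest pair of that group.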

Additional observations from a re-analysis of the deposited data

How the results depend on the processing

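The median log2 difference of the members ran from 0.83 to 1.06 over all alternatives. Srf, Acta2, Actg2, Csrp1, Myl9 and Tpm1 stayed higher in DNAJ-PKAc in 16 of 16 settings, whereas Mkl1 was above 0 in 2 and Vcl in 7. The members were chosen on this contrast and the settings refit the same libraries, so this agreement in sign is no independent support. Over all genes, 385 calls (150 higher, 235 lower) became 974 with DESeq2, 199 with the replicate block, 5336 without both WT B and DNAJ-PKAc C, 72 at a threshold of 0.01, and 77 to 2808 when each library was left out. With upper-quartile factors 114 were higher and 295 lower. The 4 calls among the other pathway genes became 9 with DESeq2, 0 with the replicate block, 42 without both libraries, 0 at 0.01, and 0 to 28 with 1 library left out. The 4 members past the threshold became 2 with upper-quartile factors, 2 with the replicate block, 0 at 0.01, and 0 to 5 with 1 library left out: 0 without WT A, WT B or WT C, 1 without DNAJ-PKAc A or B, and 5 without DNAJ-PKAc C. Cald1 ran from -0.00479 (without DNAJ-PKAc C) to 0.466 with 1 library left out, and reversed to -0.0891 without both libraries, and Mcl1 to 0.0481 without WT A. The cause was not tested. Libraries with the same letter were not treated as paired in the main fit. Their deviations from the group means correlated at 0.211 (A), -0.198 (B) and 0.0282 (C). With 3 libraries per group these values cannot show whether a letter marks a shared batch. Depth limits Actg2, Myl9, Tagln and Cnn1, where 3 counts are 0.301 to 0.371 CPM per library.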

Other observations

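The highest of the 6 libraries was not the same for all members. DNAJ-PKAc C was highest for 5 of the 8 tested members (Acta2, Actg2, Csrp1, Myl9 and Tpm1), DNAJ-PKAc A for Srf, and WT B for Mkl1 and Vcl. Over all genes tested, DNAJ-PKAc C was highest for 23.6% and WT B for 25.2%. Among the 81 other pathway genes, WT B was highest for 29 (35.8%), Mkl2, Elk4 and Ssh1 among them, and WT A for 1. WT B also held the highest level of Malat1 and of Rn45s, a ribosomal RNA precursor, with 2.66% of all counts there and 0.912 to 1.05% elsewhere. The part of these features in the values of Mkl1 and Vcl was not tested. Without WT B their log2 differences were 0.11 and 0.31.

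In DNAJ-PKAc C the high Acta2, Csrp1 and Myl9 stood beside levels of other genes that also set this library apart from DNAJ-PKAc A and B. Col1a2 reached 11140 CPM in DNAJ-PKAc C beside 3452 and 3256 CPM in A and B, against 5910 to 7954 CPM in WT. Pdgfrb reached 347 CPM in DNAJ-PKAc C beside 94.9 and 90.0 CPM in A and B, against 153 to 235 CPM in WT. Mki67, a proliferation marker, stood at 36.2 CPM in DNAJ-PKAc C beside 468 and 474 CPM in A and B, against 107 to 155 CPM in WT. Acta2 in DNAJ-PKAc A and B was at 35.4 and 34.7 CPM, beside 7.18 to 10.5 CPM in WT. Whether these features have a part in the values of Acta2, Csrp1 and Myl9 was not tested.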
